A study of Mus musculus with 6 samples.

Results

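The genes described here encode fibronectin and the matricellular proteins, and they were taken by name from the deposited table: Fn1, Tnc, Postn, Sparc, Sparcl1, Thbs2, Thbs3, Spon1, Vtn and Olfml2b. All 10 were found among the 48897 genes of the table, and all 10 passed the filter on low counts that left 19033 genes for testing. Liver sinusoidal endothelial cells, the lining of the hepatic capillaries, were taken from C57BL/6 mice aged 7 to 8 weeks. The livers had undergone partial hepatectomy (PHx), in which a portion of the organ is resected, or a sham operation, 14 days earlier. Cells were captured with beads against CD146, and each group held 3 libraries, numbered 1, 3 and 4, with no genetic change in either group given by the labels. The labels do not say whether each library came from its own animal or from pooled animals, so the p-values measure only the spread between these libraries, which may be technical.

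Fibronectin is a large adhesive glycoprotein that cells assemble into fibrils through integrins. The fibrils are an early scaffold on which collagens and other matrix proteins are deposited, and hepatocytes release a soluble form into plasma. Matricellular proteins are secreted into the same matrix but act mainly by modulating adhesion, growth factor signalling and collagen assembly rather than by bearing load. Many of them are scarce in resting adult tissue and are known from healing and scarring tissue, where stellate cells and fibroblasts are prominent sources.

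The libraries held 38765116 to 51888481 counts. All 18 markers of sinusoidal endothelium had counts in every library. Their summed level was 24650 to 38660 CPM (library-size-scaled counts, with TMM factors) in PHx and 44980 to 46840 CPM in sham, with Stab1 and Stab2, a pair of scavenger receptors, the most abundant. Markers of other cells were present too, and none was at 0 in any library. The 14 stellate cell markers, led by Reln and Vipr1, summed to 2072 to 2579 CPM in PHx and 1012 to 1518 CPM in sham, and the 11 portal fibroblast markers, led by Dcn and Eln, to 1470 to 2259 CPM in PHx and 661 to 937.3 CPM in sham. The 10 smooth muscle markers, led by Rgs5 and Notch3, summed to 603.8 to 945.4 CPM in PHx and 204.4 to 294.1 CPM in sham, and the 9 mesothelial markers, led by Gpm6a and Msln, to 113.3 to 209.9 CPM in PHx and 58.72 to 76.7 CPM in sham. Of these last lists 6 stellate, 3 portal fibroblast, 4 smooth muscle and 2 mesothelial markers were called higher and none lower. The shares of all tested genes called were 0.846% higher and 0.0158% lower. The 16 hepatocyte markers, led by Alb and Trf, summed to 937.5 to 2323 CPM in PHx and 1981 to 2588 CPM in sham. The 11 neutrophil markers, led by S100a9 and Ngp, ran at 631.9, 26.5 and 4195 CPM in PHx 1, 3 and 4, against 303.6, 165.2 and 27.49 CPM in Sham 1, 3 and 4. The groups overlapped in the sums for large vessel endothelium (10 genes, led by Vwf and Plvap; 2983 to 4770 CPM in PHx and 2335 to 3733 CPM in sham), Kupffer cells (11 genes, led by Csf1r and C1qb; 243.7 to 311.4 CPM in PHx and 176 to 631.3 CPM in sham) and platelets (6 genes, led by Itga2b and Pf4; 22.94 to 74.49 CPM in PHx and 16.78 to 24.68 CPM in sham). Mitochondrial genes took 1.33% to 2.36% of counts in PHx and 1.20% to 1.35% in sham. No marker of sinusoidal or large vessel endothelium, hepatocytes, neutrophils, Kupffer cells or platelets was called. Of the 18 sinusoidal markers, however, 14 had every PHx library below every sham library, against 9.96% of all tested genes. Their median log2 fold change was -0.53.

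The comparison asked which of these genes differed between cells from PHx and sham livers. Of the 10 genes 5 rose after PHx, 0 fell and 5 did not pass the edgeR quasi-likelihood test, with Benjamini-Hochberg adjustment over all tested genes and calls made under 0.05. Among all 19033 genes 0.846% were called higher and 0.0158% lower. Postn, Fn1, Olfml2b, Thbs3 and Thbs2 rose. Every PHx library was above every sham library in those 5 genes and in Tnc and Sparc, which did not pass the test, so in 7 of 10, against 10.6% of all tested genes. No gene of the 10 had every PHx library below every sham library, against 9.96% of all tested genes. Sparcl1, Spon1 and Vtn overlapped between the groups. The median log2 fold change over the 10 genes was 1.38, and over all tested genes it was 0.03. In bulk RNA, more cells of a type and more RNA per cell cannot be told apart.

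The calls depended on the libraries. With 1 library left out, edgeR called 3 of the 10 genes higher without PHx 1, 3 without PHx 3, 4 without PHx 4, 2 without Sham 1, 1 without Sham 3 and 0 without Sham 4. In these fits, in the same order, edgeR called 0.312%, 0.458%, 0.84%, 0.179%, 0.0348% and 0% of all tested genes higher or lower. Without Sham 4, 7 of the 10 genes had an unadjusted p under 0.05, as had 11.2% of all genes, no gene of the table was called by edgeR, and DESeq2 called 7 of the 10 higher and 0 lower, beside 2.88% and 0.464% of all genes. DESeq2 on all 6 libraries called 7 of the 10 higher and 0 lower, beside 3.78% and 0.641% of all genes.

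**Figure D1:**
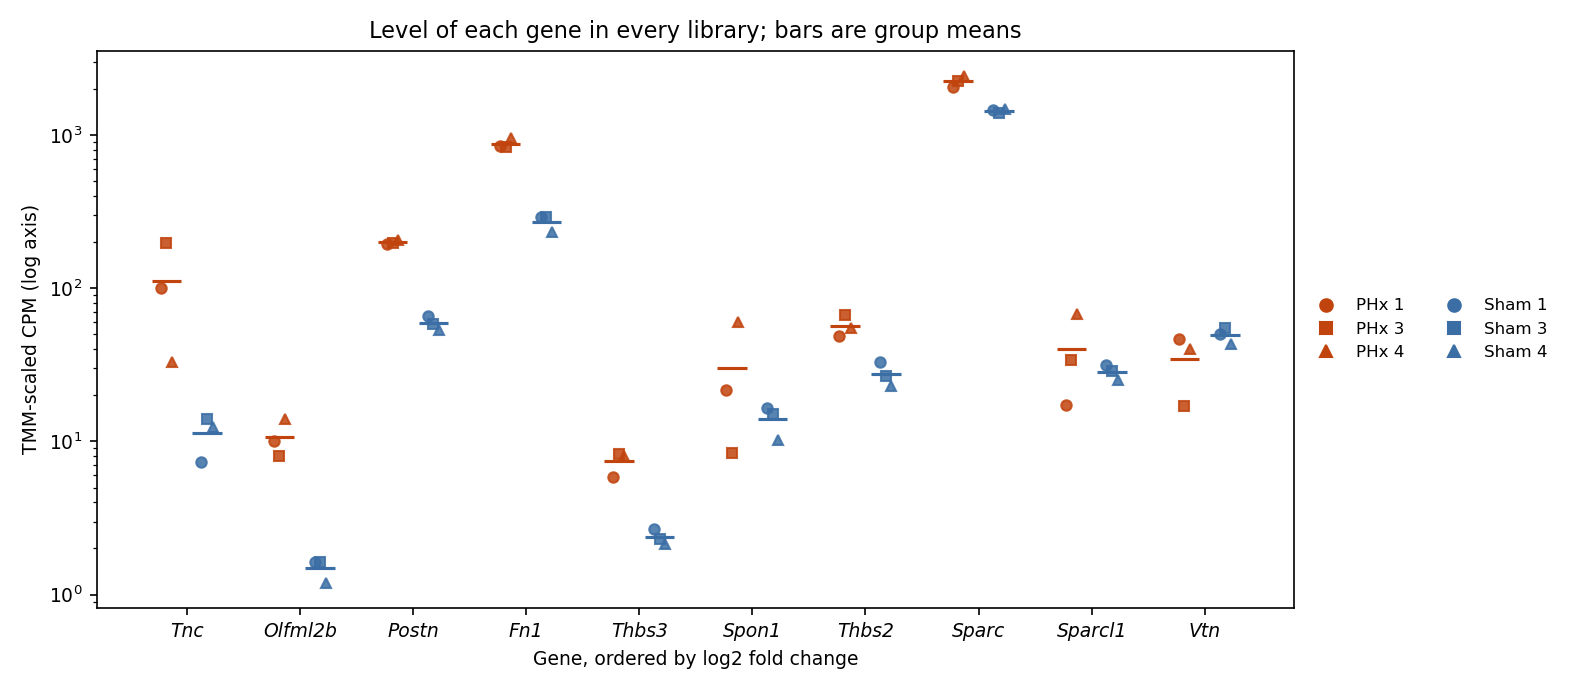
TMM-scaled CPM (vertical, log axis) of the 10 genes in each library, with PHx libraries left of sham libraries for each gene and a bar at each group mean. The groups stand apart for Tnc, Olfml2b, Postn, Fn1, Thbs3, Thbs2 and Sparc, and the PHx libraries spread most for Tnc, Spon1 and Sparcl1.

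Fn1 encodes fibronectin (chromosome 1, 71585473 to 71653234, minus strand, mm10). It stood at 845, 838 and 964 CPM in PHx 1, 3 and 4, against 295, 291 and 233 CPM in Sham 1, 3 and 4. All PHx libraries were high and close to each other, and the lowest of them was above the highest sham library. Fn1 averaged 882 ± 70.6 CPM in PHx and 273 ± 34.7 CPM in sham (SD, n = 3 each), a log2 fold change of 1.69 ± 0.14 (SE) with an edgeR adjusted p of 0.00624. Without Sham 3 the adjusted p was 0.0604 and without Sham 4 it was 0.0507, with log2 fold changes of 1.71 and 1.55. The summed hepatocyte markers overlapped between the groups, at 937.5 to 2323 CPM in PHx and 1981 to 2588 CPM in sham. The summed stellate, portal fibroblast, smooth muscle and mesothelial markers were higher in every PHx library than in every sham library. The part of any of these cells in the Fn1 difference was not tested. Counts were per gene, so plasma and cellular splice forms of fibronectin are not distinguished.

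Postn encodes periostin, a matricellular protein that binds fibronectin and collagen and promotes collagen cross-linking. Its gene lies on chromosome 3 (54359272 to 54391041, plus strand). It measured 196, 199 and 208 CPM in PHx 1, 3 and 4, against 65.9, 58.1 and 53.6 CPM in Sham 1, 3 and 4. The PHx libraries differed by a factor of 1.06 from lowest to highest, the narrowest range of the 10 genes in PHx. With group means of 201 ± 6.35 CPM in PHx and 59.2 ± 6.22 CPM in sham (SD, n = 3 each), Postn rose by 1.76 ± 0.11 on the log2 scale (edgeR adjusted p = 0.00558), and its unadjusted p ranked 1 among the 19033 tested genes. The call was lost only without Sham 4 (adjusted p = 0.0507, log2 fold change 1.66) among the fits with 1 library left out. The gene Gm31095, on the opposite strand and overlapping Postn, had at most 5 counts in any library.

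Olfml2b encodes an olfactomedin-domain protein that is secreted and known to bind glycosaminoglycans. It lies on chromosome 1 (170644423 to 170682789, plus strand). It had 522, 395 and 675 counts in PHx 1, 3 and 4, against 62, 85 and 59 counts in Sham 1, 3 and 4. On the CPM scale these were 10.1, 8.09 and 14.1 in PHx and 1.64, 1.64 and 1.20 in sham. Each PHx library was between 5.41 and 9.40 times the sham mean. Olfml2b rose by 2.84 ± 0.29 on the log2 scale (SE, edgeR adjusted p = 0.0113), the largest change among the 5 called genes. The adjusted p was 0.0582 without Sham 1, 0.0924 without Sham 3 and 0.0914 without Sham 4.

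Thrombospondins are multimeric calcium-binding proteins, of which Thbs2 forms trimers and Thbs3 pentamers. Thbs2 is known as an inhibitor of angiogenesis and a regulator of collagen fibril structure. The Thbs2 gene (chromosome 17, 14665500 to 14694262, minus strand) had 48.7, 67.2 and 55.4 CPM in PHx 1, 3 and 4, against 33.1, 26.8 and 23.2 CPM in Sham 1, 3 and 4. It averaged 57.1 ± 9.39 CPM in PHx and 27.7 ± 5.02 CPM in sham (SD, n = 3 each) and rose by 1.04 ± 0.17 (log2, SE, edgeR adjusted p = 0.0462). Thbs3 (chromosome 3, 89214812 to 89226837, plus strand) had 303, 405 and 387 counts in PHx 1, 3 and 4, against 101, 119 and 105 counts in Sham 1, 3 and 4. That corresponded to 7.40 ± 1.35 CPM in PHx and 2.37 ± 0.28 CPM in sham (SD, n = 3 each), a rise of 1.64 ± 0.25 (log2, SE, edgeR adjusted p = 0.0353).

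Both thrombospondin calls were close to the threshold, although no PHx library of either gene reached down to a sham library. Leaving out any single library ended both calls. The edgeR adjusted p then lay between 0.0708 (without PHx 1) and 0.271 (without Sham 3) for Thbs2 and between 0.0541 (without PHx 1) and 0.212 (without Sham 3) for Thbs3, with log2 fold changes of 0.89 to 1.17 and 1.54 to 1.78. Limma-voom gave adjusted p-values of 0.0641 for Thbs2 and 0.0568 for Thbs3, and upper-quartile scaling gave 0.0512 for Thbs2.

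The table of RefSeq promoters on GRCm38.p6 held 7 of the 10 genes. It had no entry for Fn1, Sparcl1 and Spon1. The promoters of the called genes with an entry are shown because these genes were higher together. Each runs from 250 bases before to 50 bases after an annotated start, and capitals mark motif matches.
Postn (chr3:54359017-54359316, plus strand): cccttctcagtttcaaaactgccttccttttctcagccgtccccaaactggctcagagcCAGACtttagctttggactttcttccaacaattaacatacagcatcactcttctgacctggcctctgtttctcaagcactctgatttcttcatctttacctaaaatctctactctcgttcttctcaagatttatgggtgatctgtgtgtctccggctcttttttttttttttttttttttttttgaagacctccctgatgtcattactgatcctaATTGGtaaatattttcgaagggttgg
Olfml2b (chr1:170644282-170644581, plus strand): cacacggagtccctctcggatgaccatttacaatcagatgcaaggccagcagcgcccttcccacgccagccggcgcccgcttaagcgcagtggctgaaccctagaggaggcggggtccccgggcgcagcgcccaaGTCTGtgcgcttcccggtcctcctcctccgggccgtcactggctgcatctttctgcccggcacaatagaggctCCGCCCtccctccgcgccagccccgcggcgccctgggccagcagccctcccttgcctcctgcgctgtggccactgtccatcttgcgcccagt
Thbs2 (chr17:14694213-14694512, minus strand): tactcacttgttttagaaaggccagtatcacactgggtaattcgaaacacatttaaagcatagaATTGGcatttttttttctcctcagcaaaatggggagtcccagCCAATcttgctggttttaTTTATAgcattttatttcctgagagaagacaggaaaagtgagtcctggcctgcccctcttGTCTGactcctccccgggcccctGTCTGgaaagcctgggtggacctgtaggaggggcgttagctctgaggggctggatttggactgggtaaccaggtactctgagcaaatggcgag
Thbs3 (chr3:89214930-89215229, plus strand): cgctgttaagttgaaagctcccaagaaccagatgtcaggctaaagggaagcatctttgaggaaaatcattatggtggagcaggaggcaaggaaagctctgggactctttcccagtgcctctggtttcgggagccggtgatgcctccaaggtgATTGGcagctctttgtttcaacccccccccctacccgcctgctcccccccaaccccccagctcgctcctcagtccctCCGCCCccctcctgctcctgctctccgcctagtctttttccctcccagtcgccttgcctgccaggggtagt

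The motifs searched, on both strands, were the TATA box TATAAA, the CCAAT box CCAAT, the GC box GGGCGG, the AP-1 site TGANTCA, the SMAD box CAGAC, the TEAD site GGAATG and the CArG box bound by serum response factor. Read on the opposite strand the CCAAT box appears as ATTGG, the GC box as CCGCCC and the SMAD box as GTCTG. The SMAD box was found in 6 of the 7 genes (all but Thbs3) and in 49.6% of all 32851 promoters of the table. The CCAAT box was found in Postn, Thbs2 and Thbs3, against 37.4% of all promoters, and the GC box in Tnc, Thbs3 and Olfml2b, against 35.7%. TATAAA was found in Tnc, Thbs2 and Vtn, against 13.6%, and the TEAD site in Vtn alone, against 14.7%. The AP-1 site and the CArG box were in none of the 7, against 7.81% and 1.63% of all promoters. In Vtn both strands of the TATA box matched over shared bases, and no other matches overlapped. These matches describe letters in the windows and do not show binding. The GC content was 69.0% in the Olfml2b window and 40.0% in the Postn window, around a median of 52.7% over all promoters. Postn and Tnc had 2 starts each in the table, of which the one nearest to the deposited gene start was used. The start used lay 368 bases from the deposited gene start in Thbs3, 109 in Olfml2b and 5 in Postn, and at it in the others. The whole Thbs3 window lies inside the deposited gene.

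**Figure D2:**
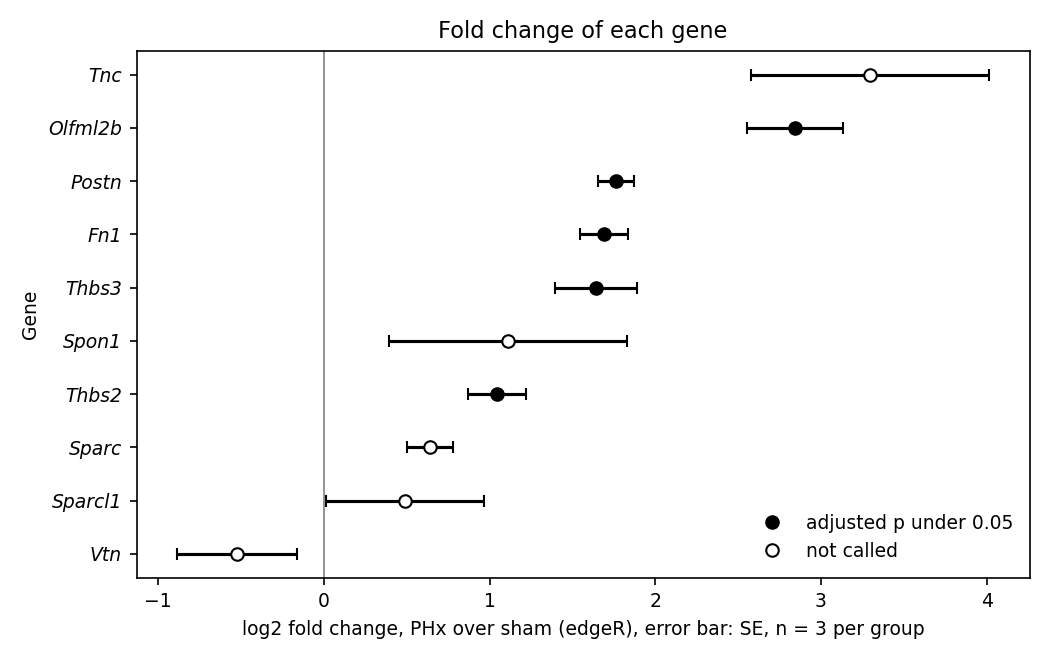
Log2 fold change of PHx over sham (horizontal) for each gene, with the edgeR standard error as bar, n = 3 libraries per group. Filled circles mark the 5 genes with an adjusted p under 0.05. Tnc has the largest estimate, 3.30, and also the widest bar, with Spon1.

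Tnc encodes tenascin-C, a hexameric glycoprotein that is nearly absent from most adult tissue and appears at sites of repair. The gene lies on chromosome 4 (63959785 to 64047015, minus strand). It had the largest fold change of the 10 and did not pass. Its levels were 101, 199 and 33.3 CPM in PHx 1, 3 and 4, against 7.39, 14.0 and 12.4 CPM in Sham 1, 3 and 4. Every PHx library was above every sham library, but PHx 3 was 5.97 times PHx 4. The group values were 111 ± 83.1 CPM in PHx and 11.3 ± 3.45 CPM in sham (SD, n = 3 each), a log2 fold change of 3.30 ± 0.72 (SE) with an edgeR adjusted p of 0.164. Without PHx 3, the highest library, the log2 fold change was 2.57 (adjusted p = 0.127). Without PHx 4, the lowest PHx library, it was 3.73 and edgeR called it (adjusted p = 0.0441), and DESeq2 called it with all libraries (adjusted p = 0.000341). Summed mesothelial markers stood at 209.9, 163.6 and 113.3 CPM in PHx 1, 3 and 4, also with PHx 4 lowest but with PHx 1 highest. In Sham 1, 3 and 4 they stood at 59.98, 58.72 and 76.7 CPM. Summed sinusoidal endothelial markers had the order of Tnc within PHx, at 29190, 38660 and 24650 CPM in PHx 1, 3 and 4. Each of these was below the sham range of 44980 to 46840 CPM. The part of these cells in the Tnc difference was not tested. The gene 8030451A03Rik on the opposite strand had at most 5 counts in a library.

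Sparc and Sparcl1 encode related proteins with a collagen-binding and a calcium-binding module. Sparc, also called osteonectin, assists the deposition of fibrillar and basement membrane collagen. Sparc (chromosome 11, 55394159 to 55420080, minus strand) stood at 2073, 2261 and 2438 CPM in PHx 1, 3 and 4, against 1466, 1408 and 1476 CPM in Sham 1, 3 and 4. It took between 0.221% and 0.241% of all counts in PHx and between 0.140% and 0.146% in sham. The groups did not overlap, and the log2 fold change was 0.64 ± 0.14 (SE), with an edgeR adjusted p of 0.101. Sparc was called by DESeq2 (adjusted p = 1.48e-05) and by edgeR without a filter on low counts (adjusted p = 0.0331), and by edgeR in none of the fits with 1 library left out.

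Sparcl1, also called hevin, is known from high endothelial venules and from glia. It lies on chromosome 5 (104079108 to 104114088, minus strand). Its levels were 17.3, 34.2 and 68.5 CPM in PHx 1, 3 and 4, against 31.6, 28.8 and 25.2 CPM in Sham 1, 3 and 4. PHx 1 was below every sham library and PHx 4 above, so the groups overlapped. The log2 fold change was 0.49 ± 0.48 (SE, edgeR adjusted p = 0.697), and without PHx 4 it was -0.15. An antisense gene listed only by its Ensembl number had at most 6 counts over the same region.

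Spon1 encodes F-spondin, an adhesive protein with thrombospondin repeats that was first known from the developing nervous system. It lies on chromosome 7 (113765998 to 114043375, plus strand). The spread within PHx was the widest of the 10 genes, at 21.6, 8.38 and 60.5 CPM in PHx 1, 3 and 4, against 16.6, 15.1 and 10.3 CPM in Sham 1, 3 and 4. PHx 4 was 7.22 times PHx 3, and PHx 3 lay below all sham libraries. The log2 fold change was 1.11 ± 0.72 (SE, edgeR adjusted p = 0.563), and it was 0.10 without PHx 4. In PHx the summed neutrophil, platelet, stellate, portal fibroblast and hepatocyte markers had the same order, with PHx 4 highest and PHx 3 lowest. Neutrophil markers stood at 4195 CPM in PHx 4 and at 26.5 CPM in PHx 3. Platelet markers stood at 33.26, 22.94 and 74.49 CPM in PHx 1, 3 and 4, of which Itga2b made 26.7, 17.3 and 68.4 CPM. Stellate markers stood at 2178, 2072 and 2579 CPM in PHx 1, 3 and 4. In the same libraries portal fibroblast markers stood at 1741, 1470 and 2259 CPM, and hepatocyte markers at 2271, 937.5 and 2323 CPM. Dcn takes the largest part of the portal fibroblast sum, with 1346, 1156 and 1903 CPM in PHx 1, 3 and 4. Of the other portal fibroblast markers only Pi16 had this order. Dpt, Gli1, Mfap4 and Gas1 were highest in PHx 3, and Eln was lowest in PHx 4. The part of these cells in the Spon1 values was not tested.

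Vtn encodes vitronectin, an adhesive plasma glycoprotein that binds integrins and is made mainly by hepatocytes. It lies on chromosome 11 (78499120 to 78502325, plus strand). It was the only one of the 10 genes with a negative log2 fold change, -0.52 ± 0.36 (SE, edgeR adjusted p = 0.578). Levels were 46.8, 17.0 and 40.2 CPM in PHx 1, 3 and 4, against 50.7, 55.5 and 43.4 CPM in Sham 1, 3 and 4, so that PHx 3 stood apart below the other libraries. Without PHx 3 the log2 fold change was -0.20. The summed hepatocyte markers were 2271, 937.5 and 2323 CPM in PHx 1, 3 and 4, against 1981, 2588 and 2231 CPM in Sham 1, 3 and 4, with the same library lowest. Per 1000 CPM of hepatocyte markers, Vtn stood at 17.3 to 20.6 CPM in PHx and at 19.5 to 25.6 CPM in sham, with PHx 3 (18.1) and PHx 4 (17.3) below every sham library and PHx 1 (20.6) within the sham range. The part of hepatocyte RNA in the Vtn values was not tested.

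**Figure D3:**
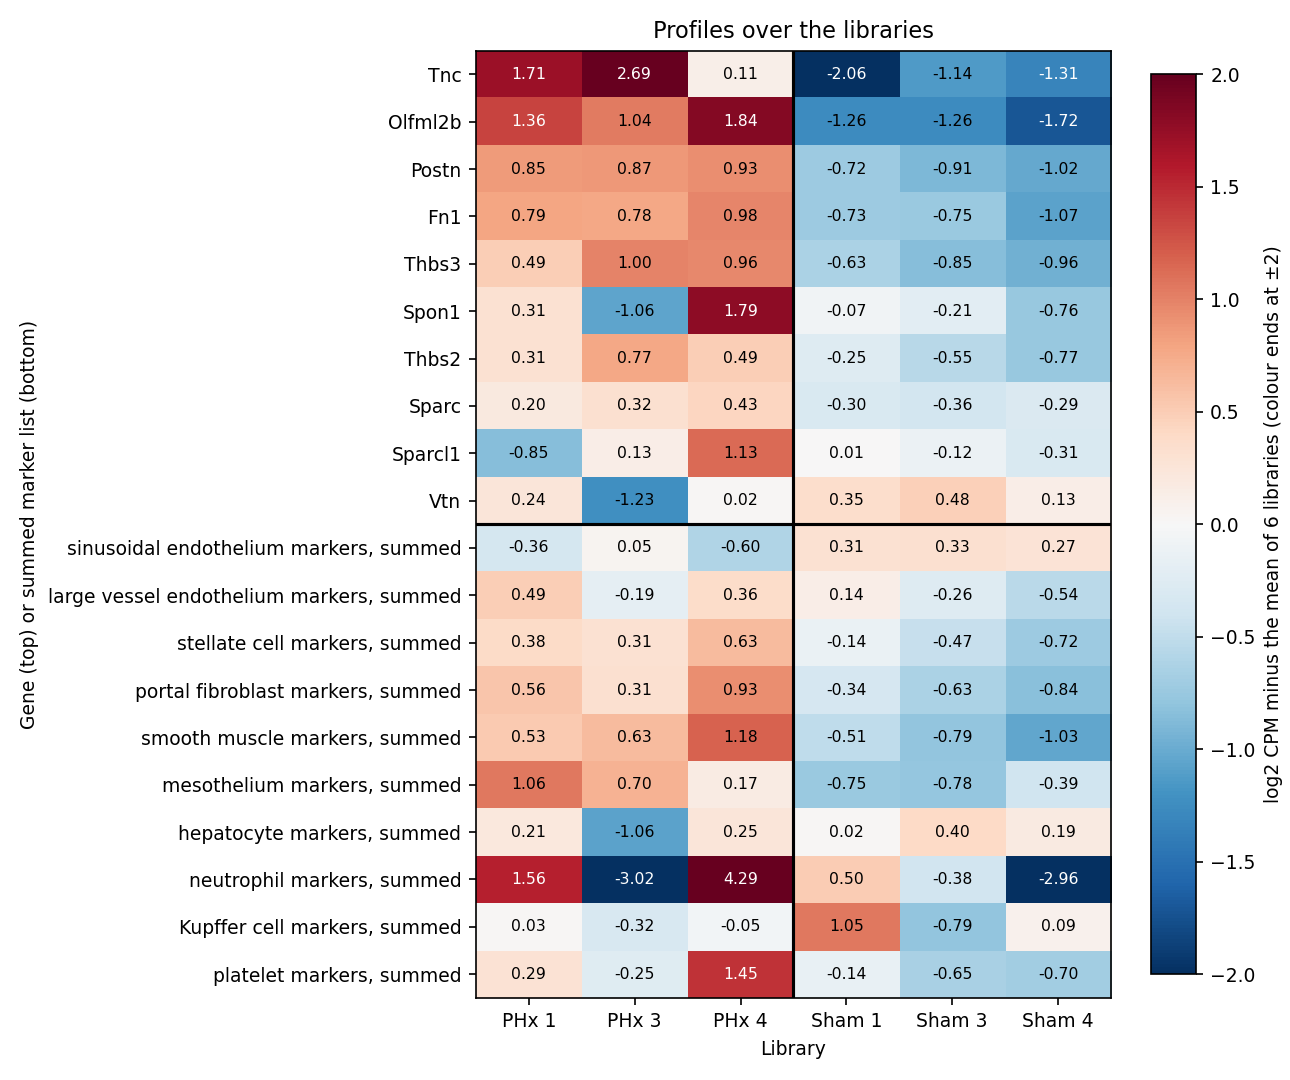
Mean-centred log2 CPM (colour and printed value) of the 10 genes and of the summed marker lists in each library, PHx libraries left of the line and sham libraries right. Tnc, Olfml2b, Postn, Fn1, Thbs3, Thbs2 and Sparc are positive in all PHx and negative in all sham libraries. So are the stellate, portal fibroblast, smooth muscle and mesothelial sums, while Vtn and the hepatocyte sum share a low PHx 3.

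Profiles were also set side by side as the root-mean-square (RMS) distance between mean-centred log2 CPM values over the 6 libraries, where 0 is an identical profile. The distances are descriptions without a test, and genes that differ between the groups by a similar amount are close by construction. Fn1 and Postn were each other's nearest gene among 11038 genes averaging at least 5 CPM, at a distance of 0.083 log2 units. Lhfp and Col16a1, a chain of a fibril-associated collagen, were the next nearest to both, at 0.12 to 0.13. Thbs3 was nearest to Adamts2, the procollagen N-proteinase (0.11), then Lum, a matrix proteoglycan (0.12), and Kdelr3 (0.13). Thbs2 was nearest to Gpr153 (0.076), Angptl2 (0.096) and Daam2 (0.13), and Sparc to Unc5b (0.052), Vasn (0.072) and Prkca (0.073).

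The remaining genes had other neighbours. Tnc was nearest to Col1a1 (0.44), a chain of type I collagen, Meg3 (0.45) and Cdh11 (0.48), and Olfml2b to Timp1 (0.33), Runx1 (0.34) and Shisa2 (0.36). Spon1 was nearest to Fmnl1 (0.16), Lmnb1 (0.17) and Lcp1 (0.17), of which Fmnl1 and Lcp1 are known as leukocyte actin regulators. Sparcl1 was nearest to Bend3 (0.18), Mt2 (0.18) and Sbno2 (0.19). Vtn was nearest to Serpinc1 (0.082), Tfr2 (0.10) and Apoh (0.11), all known as hepatocyte genes. Against the summed marker lists Vtn was closest to hepatocytes (0.18), Fn1, Postn, Thbs3 and Olfml2b to smooth muscle (0.17, 0.22, 0.19 and 0.65), Sparc and Thbs2 to stellate cells (0.22 and 0.21), and Tnc to mesothelium (1.09). Sparcl1 and Spon1 were closest to the platelet sum (0.58 and 0.40), in which Itga2b takes the largest part. Rgs5 likewise takes the largest part of the smooth muscle sum, with 459, 509 and 794 CPM in PHx 1, 3 and 4, against 243, 185 and 161 CPM in Sham 1, 3 and 4. The other genes of that list were divided. Acta2, Tagln, Myl9, Cnn1, Cspg4 and Actg2 were lowest in PHx 4 among the PHx libraries. Notch3 and Lmod1, like Rgs5, were highest in PHx 4, and Myh11 was lowest in PHx 3.

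Levels of different genes were compared per gene length, as the deposited RPKM values, which divide counts by gene length and library size. In PHx the order was Sparc (864 ± 43.3 RPKM), Fn1 (106 ± 7.70), Postn (59.8 ± 1.96), Vtn (20.3 ± 9.75), Tnc (15.2 ± 11.0), Sparcl1 (11.7 ± 7.40), Thbs2 (9.73 ± 1.28), Spon1 (4.92 ± 4.31), Olfml2b (3.39 ± 0.93) and Thbs3 (1.44 ± 0.21 RPKM, SD, n = 3). Sparc, Fn1 and Postn were apart from each other and from all that followed, and Olfml2b was apart from Thbs3, while the neighbours in the order from Vtn down to Olfml2b overlapped in range. In sham the order was Sparc (542 ± 10.8 RPKM), Fn1 (32.0 ± 3.98), Vtn (28.2 ± 3.54), Postn (17.2 ± 1.63), Sparcl1 (8.23 ± 0.86), Thbs2 (4.61 ± 0.79), Spon1 (2.23 ± 0.52), Tnc (1.51 ± 0.48), Olfml2b (0.46 ± 0.078) and Thbs3 (0.45 ± 0.048 RPKM, SD, n = 3). There the overlapping neighbours were Fn1 and Vtn, Spon1 and Tnc, and Olfml2b and Thbs3.

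Tnc stood 5th in PHx and 8th in sham in this order, Postn 3rd in PHx and 4th in sham, and Vtn 4th in PHx and 3rd in sham. By mean RPKM among all genes of the table, Sparc ranked 26th in PHx and 54th in sham, Fn1 481st in PHx and 1854th in sham, and Postn 936th in PHx and 3559th in sham. The 10 genes together took 0.358% to 0.385% of all counts in PHx and 0.186% to 0.192% in sham. Without Sparc these shares were 0.136% to 0.144% in PHx and 0.0400% to 0.0492% in sham.

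**Figure D4:**
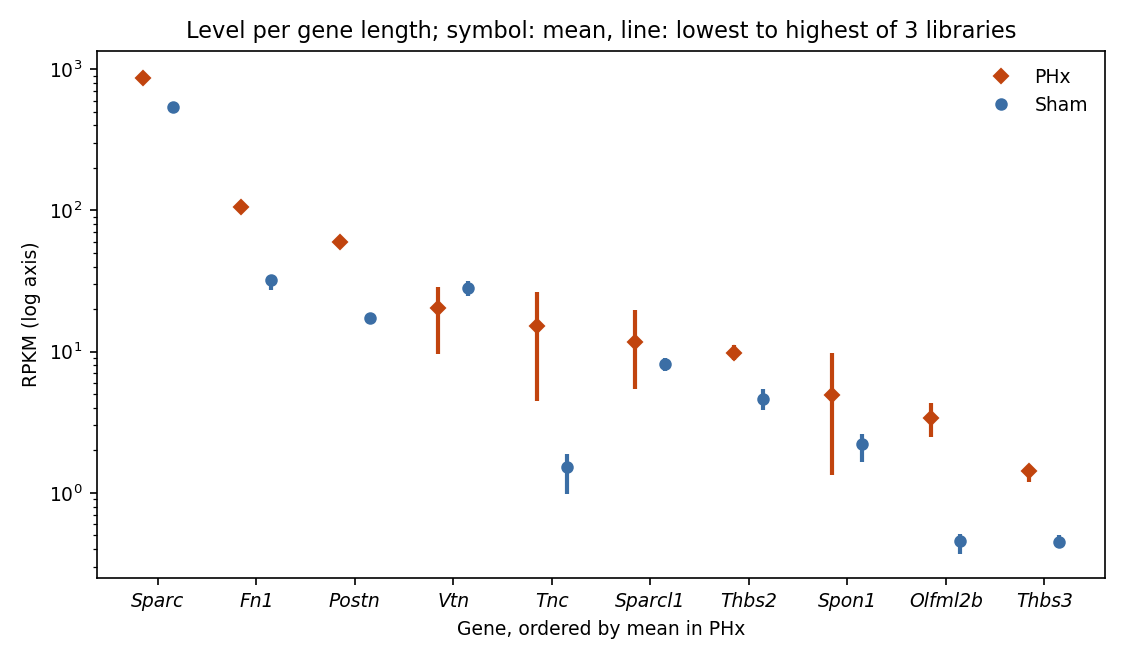
RPKM (vertical, log axis) of the 10 genes ordered by their PHx mean, with PHx left of sham for each gene. Symbols are means and lines run from the lowest to the highest of 3 libraries, and Sparc stands above all others in both groups.

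Relatives of these genes were listed by family: other thrombospondins and tenascins, CCN proteins, osteopontin, Tgfbi, genes related to SPARC and spondin, fibulins and olfactomedin genes. Of 28 listed, 24 were tested, 2 rose, 0 fell and 22 did not pass, with a median log2 fold change of 0.86. Of all tested genes 0.846% were called higher and 0.0158% lower. Fstl1, a secreted SPARC relative, rose by 1.83 ± 0.16 (SE, edgeR adjusted p = 0.00624), with 208, 183 and 170 CPM in PHx 1, 3 and 4, against 61.7, 53.6 and 42.5 CPM in Sham 1, 3 and 4. Olfml3, another secreted olfactomedin protein, rose by 1.61 ± 0.19 (adjusted p = 0.0181). Of the most abundant relatives that were not called, Tgfbi, the closest relative of periostin, averaged 538 CPM in PHx and 304 CPM in sham (log2 fold change 0.83 ± 0.27, adjusted p = 0.281), and Spp1, which encodes osteopontin, 413 CPM in PHx and 406 CPM in sham (0.03 ± 0.29, adjusted p = 0.981). The number called higher was 5 without PHx 4, and 0 without Sham 3 and without Sham 4.

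Receptors for these proteins were listed next. All 17 were tested, 12 (70.6%) had a positive log2 fold change, against 53.0% of all tested genes, and the median was 0.20. There were 2 that rose, 0 that fell and 15 without a call, beside 0.846% of all tested genes called higher and 0.0158% lower. The subunits that form the vitronectin-binding integrin alpha-v beta-5 were those called. Itgav rose by 0.89 ± 0.15 (SE, edgeR adjusted p = 0.0491), with 60.1, 55.2 and 79.8 CPM in PHx 1, 3 and 4, against 35.3, 36.5 and 33.3 CPM in Sham 1, 3 and 4. Itgb5 rose by 0.82 ± 0.10 (adjusted p = 0.0221), with 56.6, 63.1 and 64.5 CPM in PHx and 37.0, 32.9 and 34.5 CPM in sham. Itgb1, the common subunit of fibronectin receptors, had a log2 fold change of 0.20 ± 0.13 (adjusted p = 0.552), and Stab1, which takes up extracellular SPARC, one of -0.78 ± 0.24 (adjusted p = 0.260). The number called was 1 without PHx 1, and 0 without PHx 3, Sham 1, Sham 3 or Sham 4.

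Of 12 genes whose products bind or process these proteins in the matrix, 8 rose, 0 fell and 4 did not pass. Their median log2 fold change was 2.11, and 0.846% of all tested genes were called higher and 0.0158% lower. Col3a1 (2.51 ± 0.18), Col5a1 (2.16 ± 0.17) and Col1a2 (2.78 ± 0.28) encode fibrillar collagen chains. Bmp1 (1.82 ± 0.16), a procollagen proteinase, and Lox (2.41 ± 0.22), the collagen cross-linking oxidase, are both known as periostin partners. Mmp2, a protease cleared through Thbs2, rose by 2.06 ± 0.18. The edgeR adjusted p lay between 0.00558 and 0.0131 for these 6 genes. Tgm2, which cross-links fibronectin, had a log2 fold change of 0.05 ± 0.16 (adjusted p = 0.922), and Col1a1 one of 3.19 ± 0.53 (adjusted p = 0.0669). The number called higher was 2 without Sham 3 and 0 without Sham 4.

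TGF-beta induces several of these genes in fibroblasts, and 15 genes of its pathway were listed for that reason. Tgfb3, a ligand, was called, with a rise of 1.52 ± 0.18 (SE, edgeR adjusted p = 0.0196) and levels of 23.3, 24.6 and 16.6 CPM in PHx 1, 3 and 4, against 6.97, 7.60 and 7.94 CPM in Sham 1, 3 and 4. The other 14 did not pass, and the median of the 15 was -0.04. Calls over all tested genes came to 0.846% higher and 0.0158% lower. Eng, a co-receptor abundant in endothelium, stood at -0.57 ± 0.23 (adjusted p = 0.372) and Tgfbr2 at -0.12 ± 0.11 (adjusted p = 0.688). Tgfb3 was not called without PHx 1, PHx 3, Sham 1, Sham 3 or Sham 4.

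**Figure D5:**
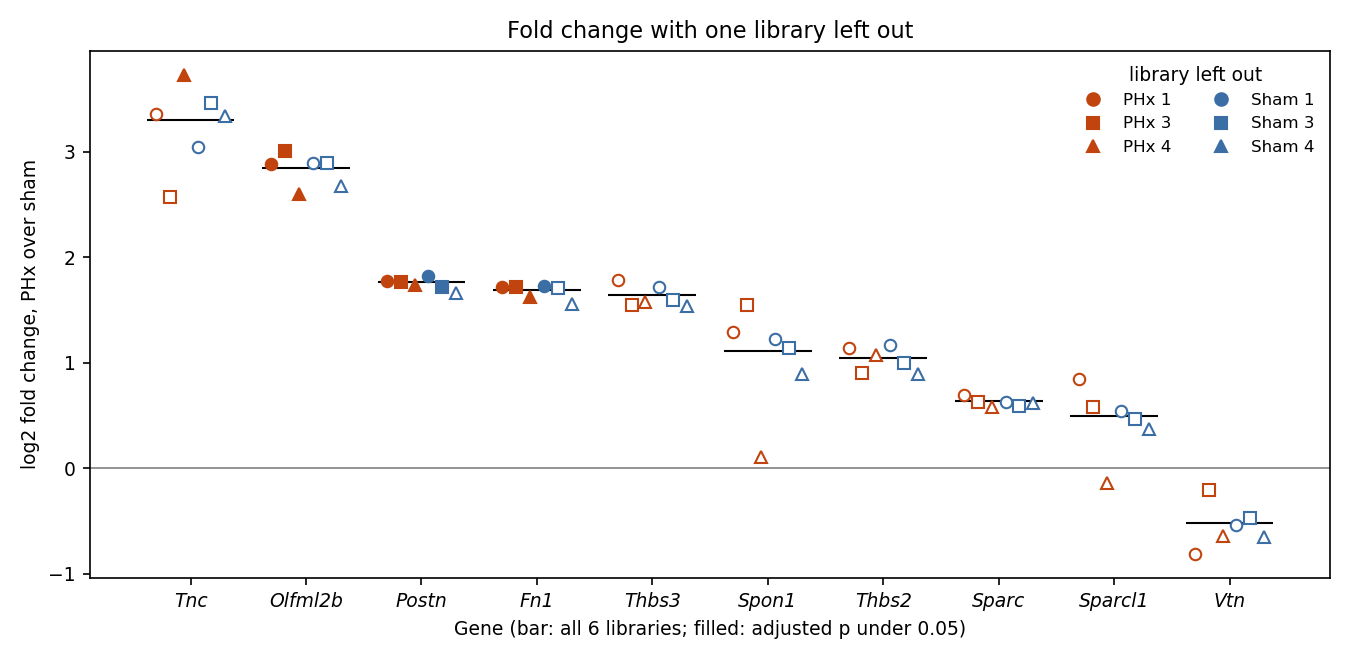
Log2 fold change of PHx over sham (vertical) for each gene with 1 library left out, where colour and shape name that library, filled symbols mark an edgeR adjusted p under 0.05, and the bar is the value with all 6 libraries. Postn stays filled in 5 of 6 fits and Fn1 in 4 of 6, Tnc is filled only without PHx 4, and Spon1 and Sparcl1 move most without PHx 4.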

How the data were processed

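RNA of liver sinusoidal endothelial cells was sequenced in 3 PHx and 3 sham libraries. Per the file headers, the authors deposited raw counts and RPKM per gene and library. Software and builds named in the submitters' processing notes were bcl2fastq, TopHat2 (2.0.13) and mm10, also given as GRCm38. Which counter and annotation were used, and whether strand was, is not given in the sources used here, so reads of overlapping genes cannot be told apart. Dividing counts by the deposited gene length and the summed counts gave back 100% of the RPKM values (tolerance 1e-06). 27 gene names that had become dates were restored from Entrez numbers. No library was a copy of another (chi-square per degree of freedom at least 49.9 in every pair).

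The counts were tested in R 4.3.3 with edgeR 4.0.16 (TMM scaling, filterByExpr, robust quasi-likelihood F-tests, group as the only term). P-values were Benjamini-Hochberg adjusted over 19033 genes, and 0.05 was the threshold. Each SE was obtained from the fold change and the F statistic. Profile distances to single genes used log2 CPM with a prior count of 2. Alternatives were DESeq2 1.42.0, limma-voom (limma 3.58.1), other scalings, filters and thresholds, the replicate number as a block, and leaving out each library.

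The 10 genes and all lists were chosen with earlier results of these data known. Of the relatives, receptors, matrix partners and TGF-beta lists, the text names every called gene (at most 6, by adjusted p) and the 2 most abundant others, and of marker lists the 2 most abundant. The 3 nearest genes in profile were named for each of the 10. Genes outside this rule are named as such. The smooth muscle markers other than Rgs5 and Notch3, and Pi16, Dpt, Gli1, Mfap4 and Gas1, also lie outside it.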

Additional observations from a re-analysis of the deposited data

How the results depend on the processing

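Across the 16 alternatives, of which DESeq2 without Sham 4 was chosen after seeing the data, 159 of 160 fold changes of the 10 genes kept their sign. The exception was Sparcl1, which ran between -0.1453 (without PHx 4) and 0.8394 with 1 library left out. The threshold of 0.01 reused the main fit, so the fold changes under it could not differ. Postn was called in 15 of the 16 and Fn1 in 13. Counts below are genes called higher among the 10 genes, the relatives, the receptors, the matrix partners, the TGF-beta genes and all genes, in that order, then lower among all genes. They were 5, 2, 2, 8, 1, 161 and 3 as reported, and other scaling factors and the filter of 5 CPM changed none by over 1.5 times. With no filter on low counts all genes were 359 and 30. With DESeq2 the relatives were 7, the TGF-beta genes 3 and all genes 719 and 122, with 1 receptor and 1 matrix partner lower. With DESeq2 without Sham 4 the relatives were 7, the TGF-beta genes 2 and all genes 576 and 93. With limma-voom the 10 genes gave 3, the receptors 1 and all genes 94 and 1. At an adjusted p under 0.01, which is stricter by construction, the counts were 2, 1, 0, 5, 0, 16 and 1. Leaving out each library gave 0 to 4 of the 10 genes, 0 to 5 relatives, 0 to 2 receptors, 0 to 7 matrix partners, 0 to 1 TGF-beta genes, and 0 to 160 and 0 to 9 of all genes, with 0 to 1 matrix partner lower. Those fits have fewer samples, and the cause was otherwise not tested. Deviations from the group means were not shared by libraries of one number (r = -0.0897, -0.229 and 0.0269 for 1, 3 and 4), and no PHx library correlated best with its own number. A replicate block in the fit gave 1, 1, 0, 3, 1, 14 and 1, with Postn the 1 of the 10 genes (adjusted p = 0.0462). Scaling moved the median log2 fold change of all genes between -0.0078 and 0.064. Calls at few counts, such as Olfml2b and Thbs3, rest on 59 to 119 counts per sham library.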

Other observations

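Some genes outside the naming rule were chosen after their values were seen. Thbs1, which encodes the thrombospondin known as an activator of latent TGF-beta and as a platelet protein, stood at 169, 233 and 709 CPM in PHx 1, 3 and 4, against 45.8, 26.2 and 42.8 CPM in Sham 1, 3 and 4. All PHx libraries were above all sham libraries, but PHx 4 was far above PHx 1 and PHx 3, and the log2 fold change of 3.28 ± 0.65 (SE) did not pass (edgeR adjusted p = 0.128). Summed smooth muscle markers had the same order within PHx, at 603.8, 647.9 and 945.4 CPM in PHx 1, 3 and 4, against 294.1, 242 and 204.4 CPM in Sham 1, 3 and 4. Rgs5 takes the largest part of that sum, and of the other genes in it only Lmod1 had this order within PHx. The stellate and portal fibroblast sums were also highest in PHx 4, at 2579 and 2259 CPM, and Dcn takes the largest part of the portal fibroblast sum. Summed neutrophil markers stood at 631.9, 26.5 and 4195 CPM in PHx 1, 3 and 4, against 303.6, 165.2 and 27.49 CPM in Sham 1, 3 and 4. Summed platelet markers stood at 33.26, 22.94 and 74.49 CPM in PHx 1, 3 and 4, against 24.68, 17.4 and 16.78 CPM in Sham 1, 3 and 4. The part of these cells in the Thbs1 values was not tested.

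Col1a1 had the order of Tnc within PHx, with 693, 1371 and 509 CPM in PHx 1, 3 and 4, against 49.4, 104 and 128 CPM in Sham 1, 3 and 4. Tnn, the gene of tenascin-N, did not pass the filter on low counts. It stood at 0.17, 3.05 and 0.29 CPM in PHx 1, 3 and 4, highest in PHx 3 like Tnc, while the 3 sham libraries had at most 0.058 CPM. Sdc4, a syndecan that binds fibronectin beside integrins, had 62.5, 56.3 and 102 CPM in PHx 1, 3 and 4, against 35.6, 37.2 and 41.5 CPM in Sham 1, 3 and 4, without overlap and without passing (0.95 ± 0.23, adjusted p = 0.144).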
